A study of Mus musculus with 12 samples.

Results

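Preadipocytes sorted from perivascular fat were compared with ICAM1+ preadipocytes sorted from inguinal white fat, a subcutaneous depot, by poly(A) RNA sequencing. The comparison uses 6 of the 12 libraries of the study, 3 from each population, and every gene that passed a filter on low counts, which was 18855 of the 31099 genes counted. Both populations came from CD-1 mouse pups of both sexes at postnatal day 3 with no genotype or treatment difference in the labels. The perivascular preadipocytes were obtained by digesting the aorta together with its surrounding fat, and the surface markers of their sort gate are unstated in the labels. The inguinal preadipocytes were sorted as ICAM1+, so that Icam1 chose those cells and is no finding between the groups, and the depot and the sort gate cannot be told apart. Each replicate pooled several pups, and libraries that carry one number were made from one pool. The other 6 libraries, progenitors of both depots, entered the fit only to help estimate the spread.

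Preadipocytes are fibroblast-like cells of the fat stroma that have begun to turn on the receptor and transcription factor program of fat cells but have not yet filled with lipid. Fat around the rodent thoracic aorta resembles brown fat, in which mitochondria burn fatty acids and uncoupling protein 1 lets the proton gradient run down as heat. Inguinal fat is a white depot that stores triglyceride and can acquire brown-like cells on cold exposure.

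Levels are CPM (read counts scaled to a common library size) with the trimmed-mean factors of edgeR, given for libraries 1, 2 and 3 of a group in that order. Differences are log2 fold changes (log2FC) of perivascular over inguinal preadipocytes with their standard error, and a gene was called higher or lower at a Benjamini-Hochberg adjusted p under 0.05 in edgeR's quasi-likelihood test. The 3 perivascular libraries held 17780457, 16762853 and 15614628 counts and the 3 inguinal libraries 15692839, 25674461 and 19464166. Over the 500 most variable genes, the first principal component of the 6 libraries carried 92.7% of the variance and separated the groups. The perivascular libraries differed more among themselves, with a median SD over genes of 0.361 on the log2 scale, against 0.177 for the inguinal libraries.

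Perivascular library 1 stood apart from the other two of its group. In it 737 genes were at least 2-fold above and 932 at least 2-fold below both other perivascular libraries, against at most 305 above and 426 below for either of those. Col3a1, a fibrillar collagen, took 5.40%, 2.72% and 1.93% of perivascular counts and 9.88%, 10.8% and 11.6% of inguinal counts, and the mitochondrially encoded genes took 0.769%, 1.70% and 2.0% against 0.737%, 0.686% and 0.659%. Library 1 thus had the highest share of this collagen and the lowest share of mitochondrial RNA in its group. Between perivascular libraries 3 and 2 the log2 ratio also ran with annotated exon length (Spearman rho of -0.303 across 18847 genes, which are not independent replicates), and rho was 0.162 between perivascular libraries 1 and 2 and -0.00798 between inguinal libraries 3 and 2. Across the same genes rho of the log2 fold change with exon length was -0.135.

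Both populations carried the RNA of mesenchymal preadipocytes. Pdgfra, the receptor that marks fat progenitors, was at 239.6, 164 and 118 CPM in perivascular cells, against 530.3, 583 and 755 CPM in inguinal cells (log2FC -1.84 ± 0.28, adjusted p = 2.6e-04). Pparg, a nuclear receptor required for fat cells to form, was at 96.2, 187 and 191 CPM in perivascular cells, against 73.7, 76.1 and 69.8 CPM in inguinal cells (log2FC 1.11 ± 0.25, adjusted p = 0.0033). The 8 adipocyte markers summed to 1357, 3988 and 4628 CPM in perivascular cells, against 709.5, 645 and 646 CPM in inguinal cells, and 7 of 8 were called higher, while 6 of 6 fibroblast markers were called lower. In these sorted populations a larger share of cells of one kind and more RNA per cell cannot be told apart. How far the adipocyte markers take part in the results on fat and mitochondrial genes was not tested.

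Of the 18855 genes tested, 8440 were called (44.8%), 4402 higher (23.3%) and 4038 lower (21.4%) in perivascular preadipocytes, with a median log2 fold change of 0.04 over all genes. Of these, 5476 (29%) also changed at least 2-fold. Leaving out perivascular library 1 gave 9446 calls, 4512 higher and 4934 lower. Scaling by library totals in place of trimmed-mean factors moved the median of all genes to 0.27 and the calls to 5840 higher and 2948 lower, so that 66.5% of calls were higher, against 52.2% before.

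The genes with the largest changes fell into recognisable kinds. Among the 12 highest were Irs4, an adaptor of the insulin receptor, and Car2, a carbonic anhydrase, together with Thrsp, which promotes lipogenesis, Chchd10, a mitochondrial protein, and Actc1, cardiac actin. Irs4 (chrX:141710998-141725263, GRCm38) was at 23.6, 43 and 48.3 CPM in perivascular cells, against 0, 0 and 0.206 CPM in inguinal cells (log2FC 9.05 ± 0.68, adjusted p = 1.5e-06). Every perivascular library lay far above every inguinal one, and the inguinal libraries held 4 counts of it in all. Car2 was at 27.8, 83.6 and 102 CPM in perivascular cells, against 0.797, 0.62 and 0.771 CPM in inguinal cells (log2FC 6.61 ± 0.45, adjusted p = 6.3e-07). Chchd10 was at 30.1, 93 and 127 CPM in perivascular cells, against 1.16, 1.12 and 1.13 CPM in inguinal cells (log2FC 6.19 ± 0.69, adjusted p = 4.6e-05). Nell2, a secreted glycoprotein, and Frzb, a secreted Wnt antagonist, were carried mostly by perivascular library 1: Nell2 was at 25.8, 5.28 and 1.93 CPM in perivascular cells, against 0.0613, 0.232 and 0.154 CPM in inguinal cells, and Frzb at 36.5, 6.06 and 3.54 CPM against 0.245, 0.426 and 0.103 CPM. The naming rule took in called genes whose groups did not overlap, so the separation of these genes is no further result.

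The 12 lowest held Hoxc10 and Hoxa10, posterior homeobox genes, Ly6a and Ly6c1, surface proteins of stromal and haematopoietic cells, Tbx15, a T-box factor of subcutaneous mesenchyme, and Has1, a hyaluronan synthase. Ly6a (chr15:74994877-74998031) was at 4.33, 3.23 and 4.99 CPM in perivascular cells, against 897, 814 and 816 CPM in inguinal cells (log2FC -7.65 ± 0.28, adjusted p = 1.7e-08). Kitl, the ligand of the Kit receptor, was at 8.11, 4.79 and 5.36 CPM in perivascular cells, against 193, 203 and 212 CPM in inguinal cells (log2FC -5.05 ± 0.28, adjusted p = 1.2e-07). Has1 was at 8.16, 5.08 and 3.54 CPM in perivascular cells, against 213, 194 and 158 CPM in inguinal cells (log2FC -5.07 ± 0.30, adjusted p = 1.8e-07). Also among the 12 was Npy2r, a neuropeptide Y receptor, whose values stand with the other receptors. Ifi205, an interferon-inducible gene, was at 0.295, 0.147 and 0.107 CPM in perivascular cells, against 19.6, 25.2 and 21.1 CPM in inguinal cells.

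Most of the 10 most abundant called genes encode structural proteins of the matrix, and Car3, Gsn and Fstl1 do not. Car3, a carbonic anhydrase of muscle and fat, was at 3439, 8704 and 9738 CPM in perivascular cells, against 178, 157 and 109.8 CPM in inguinal cells (log2FC 5.62 ± 0.42, adjusted p = 1.3e-06). Gsn, gelsolin, which severs actin filaments, was at 1902, 2135 and 2043 CPM in perivascular cells, against 7689, 8339 and 8879 CPM in inguinal cells (log2FC -2.03 ± 0.17, adjusted p = 3.4e-06). Fstl1, a secreted glycoprotein of mesenchyme, was at 2853, 1191 and 808 CPM in perivascular cells, against 4341, 4597 and 4719 CPM in inguinal cells (log2FC -1.49 ± 0.35, adjusted p = 0.0046).

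**Figure D1:**
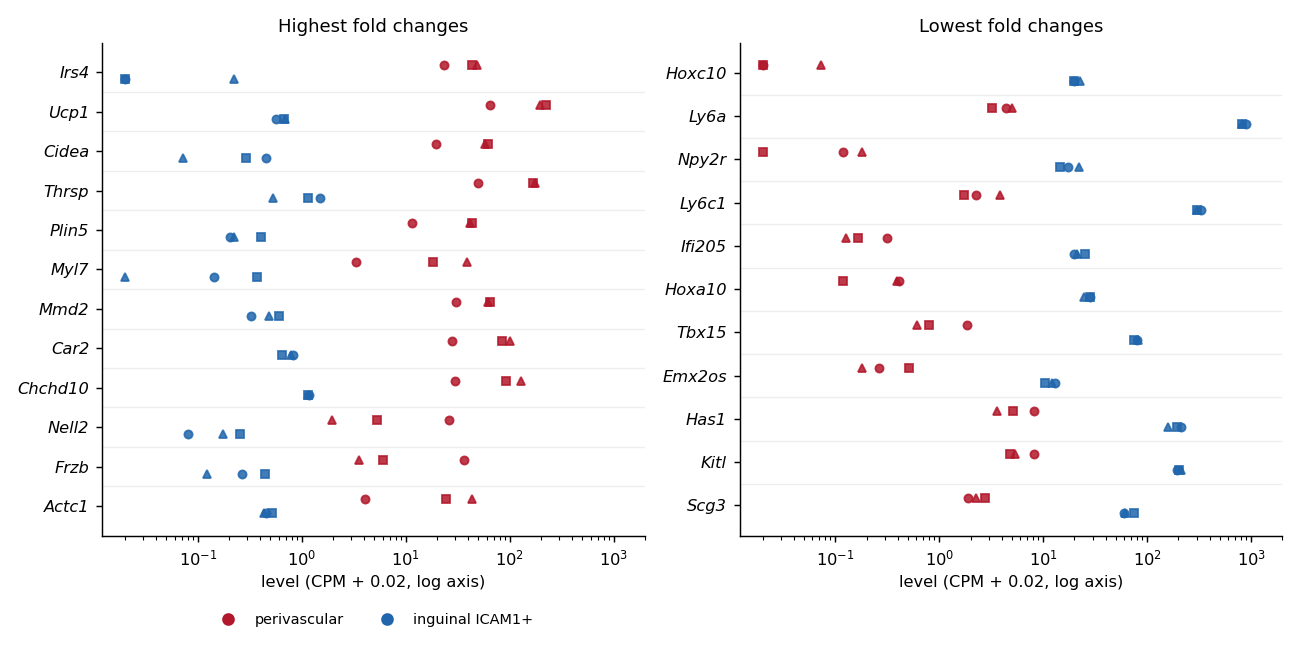
Level of the 12 genes with the highest and 11 of the 12 with the lowest log2 fold change, in CPM plus 0.02 on a log axis, in each perivascular library and each inguinal ICAM1+ library (circles, squares and triangles for libraries 1, 2 and 3). The perivascular and inguinal points of every gene lie apart, as the naming rule required, and perivascular library 1 is the lowest of its group for Ucp1 and the highest for Nell2 and Frzb.

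Genes of heat production were higher in perivascular preadipocytes. Of 17 thermogenic effectors tested, 15 were called higher and the other 2 did not pass, with a median log2 fold change of 3.69. Their summed level was 303, 814 and 806 CPM in perivascular cells, against 60.2, 63.8 and 62.1 CPM in inguinal cells. Ucp1 (chr8:83290352-83298452) was at 64.8, 225 and 195 CPM in perivascular cells, against 0.551, 0.658 and 0.668 CPM in inguinal cells (log2FC 7.99 ± 0.59, adjusted p = 2.2e-06). Ppargc1a, the coactivator that drives mitochondrial biogenesis, was at 17.6, 43.5 and 38.6 CPM in perivascular cells, against 1.04, 0.658 and 1.39 CPM in inguinal cells (log2FC 5.02 ± 0.48, adjusted p = 1.0e-05). Kcnk3, a potassium channel of brown fat, was at 8.06, 32.2 and 57 CPM in perivascular cells, against 0.797, 0.852 and 1.39 CPM in inguinal cells (log2FC 4.99 ± 0.82, adjusted p = 5.7e-04). In each case library 1 was the lowest perivascular library and still lay above every inguinal library.

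The other uncoupling proteins did not follow Ucp1. Ucp2, an anion carrier of the inner membrane found in many tissues, was lower, at 145, 131 and 124 CPM in perivascular cells, against 203, 208 and 205 CPM in inguinal cells (log2FC -0.62 ± 0.14, adjusted p = 0.0028). Ucp3 was at 0.59, 0.196 and 0.536 CPM in perivascular cells, against 0.245, 0.62 and 0.411 CPM in inguinal cells, with groups that overlap and no call (adjusted p = 0.99). Slc25a5, which exchanges ADP for ATP across the inner membrane, was higher, at 609, 1239 and 1302 CPM in perivascular cells, against 468, 437 and 393 CPM in inguinal cells (log2FC 1.28 ± 0.24, adjusted p = 9.7e-04). Of the genes of creatine and calcium cycling, 3 of 12 were higher and 1 lower, with 2 lower without perivascular library 1. The share higher, 25%, was near the 23.3% over all genes tested. Ckb, the creatine kinase of that cycle, was the lower one, at 100.1, 62.3 and 54.6 CPM in perivascular cells, against 223, 211 and 213 CPM in inguinal cells (log2FC -1.57 ± 0.21, adjusted p = 1.0e-04). Alpl, an alkaline phosphatase that can hydrolyse phosphocreatine, was higher, at 56.8, 95.2 and 65.8 CPM in perivascular cells, against 27.6, 25.6 and 28 CPM in inguinal cells (log2FC 1.42 ± 0.19, adjusted p = 1.1e-04). Sln, an inhibitor of the calcium pump best known in atrial muscle, was at 1.18, 3.13 and 9.82 CPM in perivascular cells, against 0.0613, 0.0387 and 0 CPM in inguinal cells, where only 2 inguinal counts stand behind the ratio (140.4-fold higher by CPM, 95% interval 38.5 to 1166, counting error only). Perivascular library 3 carried most of it, and without that library the ratio was 66.4 (95% interval 17.9 to 557).

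**Figure D2:**
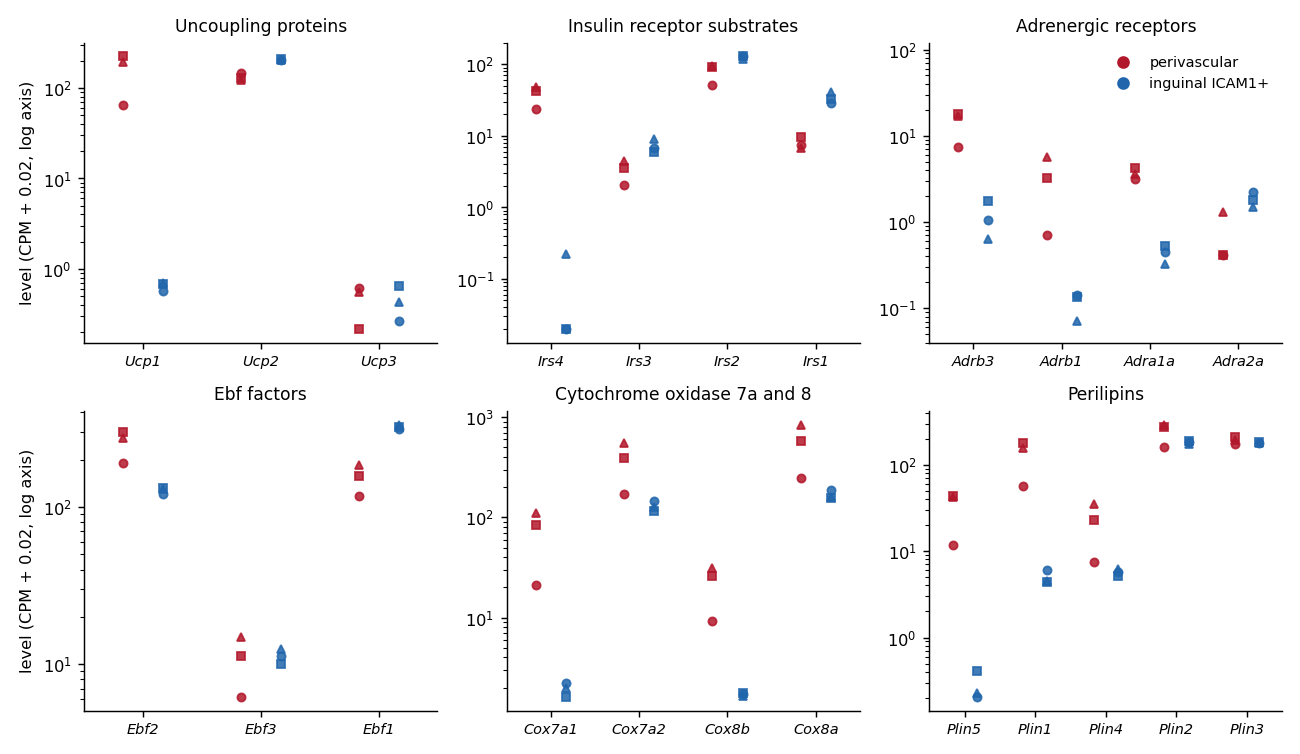
Level, in CPM plus 0.02 on a log axis, of members of 6 gene families, the uncoupling proteins, insulin receptor substrates, adrenergic receptors, Ebf factors, cytochrome oxidase isoform pairs and perilipins, in each perivascular library and each inguinal ICAM1+ library (circles, squares and triangles for libraries 1, 2 and 3). Ucp1, Irs4, Adrb3, Ebf2, Cox7a1, Cox8b and Plin5 are higher in perivascular cells, while Ucp2, Irs1 and Ebf1 are lower.

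Genes of insulin signalling also went in opposite directions. Among the insulin receptor, its substrates and the glucose carrier Slc2a4, the receptor Insr was at 24.2, 27.6 and 30.9 CPM in perivascular cells, against 22.2, 26.2 and 21.1 CPM in inguinal cells and was not called (adjusted p = 0.19). Irs1, the widely used adaptor, was lower, at 7.47, 9.63 and 6.81 CPM in perivascular cells, against 29.2, 33.3 and 40.8 CPM in inguinal cells (log2FC -2.11 ± 0.29, adjusted p = 1.3e-04), while Irs4 was higher. Irs2 was at 51.1, 92 and 93.8 CPM in perivascular cells, against 129.8, 129.5 and 118 CPM in inguinal cells (log2FC -0.67 ± 0.22, adjusted p = 0.026). That call was lost with library-total scaling (adjusted p = 0.15) and without inguinal library 1 or 2. Slc2a4, which carries glucose into fat and muscle in response to insulin, was higher, at 29.1, 51.7 and 39.8 CPM in perivascular cells, against 11.4, 11.5 and 12.6 CPM in inguinal cells (log2FC 1.76 ± 0.31, adjusted p = 7.4e-04).

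Of 7 adrenergic receptors tested, 4 were called higher and 2 lower. These were 57.1% and 28.6%, against 23.3% and 21.4% over all genes tested. The receptors given here are among the higher ones, and values of the 2 lower ones are not given. The β3-adrenergic receptor Adrb3, through which noradrenaline starts lipolysis and heat production, was at 7.42, 17.9 and 16.9 CPM in perivascular cells, against 1.04, 1.74 and 0.617 CPM in inguinal cells (log2FC 3.60 ± 0.46, adjusted p = 7.5e-05). Adrb1 was at 0.688, 3.18 and 5.69 CPM in perivascular cells, against 0.122, 0.116 and 0.0514 CPM in inguinal cells (log2FC 4.93 ± 0.99, adjusted p = 0.0016). The α1 receptor Adra1a was at 3.15, 4.16 and 3.54 CPM in perivascular cells, against 0.429, 0.503 and 0.308 CPM in inguinal cells (log2FC 3.09 ± 0.56, adjusted p = 8.1e-04).

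Transcription factors of fat cells were split, 11 of 24 higher and 5 lower (median 0.55). The share lower, 20.8%, was near the 21.4% over all genes tested. Cebpa, Prdm16 and Mlxipl were among the higher ones. Cebpa, which acts with Pparg to complete fat cell formation, was at 12.1, 37 and 45.5 CPM in perivascular cells, against 3.06, 2.75 and 3.44 CPM in inguinal cells (log2FC 3.35 ± 0.51, adjusted p = 2.8e-04). Prdm16, a determinant of brown fat identity, was at 9, 18.9 and 23 CPM in perivascular cells, against 3.49, 3.17 and 3.03 CPM in inguinal cells (log2FC 2.39 ± 0.34, adjusted p = 1.5e-04). Mlxipl, the carbohydrate-response factor of lipogenesis, was at 11.4, 25.7 and 25.3 CPM in perivascular cells, against 1.23, 2.32 and 1.54 CPM in inguinal cells (log2FC 3.59 ± 0.47, adjusted p = 9.0e-05). All 3 were lowest in perivascular library 1 and still above every inguinal library.

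The Ebf factors, which specify the fat lineage, differed in direction. Ebf2, linked to brown preadipocytes, was at 189, 301 and 276 CPM in perivascular cells, against 120.2, 132 and 129 CPM in inguinal cells (log2FC 1.01 ± 0.18, adjusted p = 7.2e-04). Ebf1 was at 117, 157 and 184 CPM in perivascular cells, against 314, 324 and 334 CPM in inguinal cells (log2FC -1.09 ± 0.17, adjusted p = 3.6e-04). Nfia, a partner of Ebf2 in brown fat, was at 213, 222 and 193 CPM in perivascular cells, against 227, 235 and 216 CPM in inguinal cells and was not called (adjusted p = 0.51). Cebpb, an early factor of differentiation, rested on library 3, at 2.16, 9.14 and 88 CPM in perivascular cells against 1.9, 1.82 and 0.874 CPM in inguinal cells. Its adjusted p of 0.042 became 0.37 without that library and 0.082 with the replicate block.

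Genes of the lipid droplet were higher almost throughout, 13 of 15 tested, while 2 did not pass (median 2.63). Cidec, which enlarges lipid droplets, was at 43, 133 and 108 CPM in perivascular cells, against 2.51, 4.57 and 3.14 CPM in inguinal cells (log2FC 4.78 ± 0.97, adjusted p = 0.0022). The lipases Pnpla2 and Lipe, which release fatty acids from triglyceride, were both higher: Pnpla2 was at 122, 278 and 215 CPM in perivascular cells against 31.1, 36.1 and 32.4 CPM in inguinal cells, and Lipe at 40.9, 122 and 100.1 CPM against 11.5, 12.3 and 10.8 CPM. So was G0s2, the inhibitor of Pnpla2, at 96.5, 326 and 401 CPM in perivascular cells, against 31.7, 28.4 and 24.5 CPM in inguinal cells (log2FC 3.28 ± 0.49, adjusted p = 2.9e-04). Within the perilipins, which coat the droplet, Plin1 and Plin5 were called and the other 3 were not. Plin5, the perilipin of oxidative tissues, was at 11.6, 43.4 and 41.8 CPM in perivascular cells, against 0.184, 0.387 and 0.206 CPM in inguinal cells (log2FC 6.86 ± 0.80, adjusted p = 5.7e-05). Plin3, which coats droplets in most cell types, was at 173, 207 and 191 CPM in perivascular cells, against 180.3, 181 and 178 CPM in inguinal cells and was not called (adjusted p = 0.65).

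Uptake and storage of fatty acids did not move as a block. Of 24 genes, 12 were higher and 2 lower (median 1.0). Only 1 was lower when any 1 inguinal library was left out, and 5 were lower by DESeq2's Wald test. Gpd1, which makes the glycerol backbone of triglyceride, was at 202, 531 and 392 CPM in perivascular cells, against 8.39, 7.59 and 7.5 CPM in inguinal cells (log2FC 5.58 ± 0.54, adjusted p = 1.9e-05). Pck1, the key enzyme of glyceroneogenesis, was at 60.5, 169 and 101 CPM in perivascular cells, against 3.55, 4.65 and 4.42 CPM in inguinal cells (log2FC 4.71 ± 0.66, adjusted p = 2.1e-04). Acsl1, which activates fatty acids, was at 159, 389 and 287 CPM in perivascular cells, against 28.5, 28.8 and 23.9 CPM in inguinal cells (log2FC 3.36 ± 0.35, adjusted p = 1.9e-05). Against these, Lpl, the lipase that frees fatty acids from lipoproteins, was at 1540, 2391 and 2393 CPM in perivascular cells, against 2779, 3039 and 3261 CPM in inguinal cells, and its call of lower (log2FC -0.52 ± 0.19, adjusted p = 0.04) was lost without any 1 inguinal library. Cd36, the fatty acid carrier of the cell surface, was at 279.8, 583 and 608 CPM in perivascular cells, against 826, 794 and 897 CPM in inguinal cells, below the inguinal libraries in every case, and was not called (adjusted p = 0.058), but was called lower with the replicate block (adjusted p = 0.016). Fasn, the fatty acid synthase, named after its values were seen, was at 84.7, 101 and 79.5 CPM in perivascular cells, against 126, 124 and 131 CPM in inguinal cells and was not called.

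Enzymes that oxidise fatty acids were higher for 16 of 19 genes and lower for 2 (median 1.74). Acadl, which takes the first step on long chains, was at 171, 392 and 417 CPM in perivascular cells, against 59.2, 54.5 and 51.5 CPM in inguinal cells (log2FC 2.57 ± 0.30, adjusted p = 4.1e-05). Slc25a20, which brings acylcarnitines into mitochondria, was at 61.2, 127 and 95.5 CPM in perivascular cells, against 23.6, 27.6 and 24.8 CPM in inguinal cells (log2FC 1.90 ± 0.21, adjusted p = 3.1e-05). The lower 2, named after their values were seen, were Cpt1a and Acsf2. Cpt1a, the carnitine transferase that gates entry in most tissues, was at 87.6, 59.3 and 31.9 CPM in perivascular cells, against 116, 118 and 148 CPM in inguinal cells (log2FC -1.09 ± 0.27, adjusted p = 0.0061), and the muscle and brown fat form Cpt1b did not pass the filter on low counts.

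The tricarboxylic acid cycle and the respiratory chain were higher at nearly every member tested. In the cycle 21 of 22 genes were higher (median 1.82). Idh3a, a subunit of the isocitrate dehydrogenase of the cycle, was at 494, 1318 and 1382 CPM in perivascular cells, against 77.6, 79.5 and 73.2 CPM in inguinal cells (log2FC 3.79 ± 0.32, adjusted p = 3.6e-06). Pcx, which makes oxaloacetate from pyruvate, was at 90.6, 161 and 117 CPM in perivascular cells, against 15.6, 13.7 and 13.4 CPM in inguinal cells (log2FC 3.11 ± 0.38, adjusted p = 6.4e-05). Complex I had 34 of 37 subunits higher (median 1.64), complex III with cytochrome c 10 of 10 (median 2.13), complex IV 13 of 14 (median 1.68) and the ATP synthase 15 of 16 (median 1.43) and the remaining subunits tested did not pass. Library 1 was the lowest perivascular library in the summed level of each complex: complex I summed to 4796, 9407 and 12191 CPM in perivascular cells and 3303, 2840.1 and 2866 CPM in inguinal cells.

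Cytochrome oxidase has tissue-specific forms of several subunits, and these differed in size of change. Cox7a1, the heart and brown fat form, was at 21.2, 83.8 and 109 CPM in perivascular cells, against 2.21, 1.59 and 1.95 CPM in inguinal cells (log2FC 5.23 ± 0.51, adjusted p = 1.5e-05). Its ubiquitous counterpart Cox7a2 was at 173, 391 and 553 CPM in perivascular cells, against 145, 116 and 126 CPM in inguinal cells (log2FC 1.53 ± 0.32, adjusted p = 0.002). Cox8b, the form lost in human but used by rodent muscle and brown fat, was at 9.24, 26.2 and 31 CPM in perivascular cells, against 1.72, 1.74 and 1.65 CPM in inguinal cells (log2FC 3.70 ± 0.56, adjusted p = 2.6e-04). Cox8a was at 246, 584 and 844 CPM in perivascular cells, against 187, 155 and 158 CPM in inguinal cells (log2FC 1.74 ± 0.33, adjusted p = 0.0012). Cox4i2, the lung form, was at 2.75, 2.3 and 1.56 CPM in perivascular cells, against 2.33, 2.05 and 2.47 CPM in inguinal cells and was not called. Cox6a1 was called higher (log2FC 0.89 ± 0.30, adjusted p = 0.027), with an adjusted p of 0.054 with the replicate block.

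Subunits encoded by the mitochondrial genome were higher for 12 of 13 genes (median 1.24). mt-Cytb, a subunit of complex III, was at 1665, 3415 and 3927 CPM in perivascular cells, against 1053, 995 and 909 CPM in inguinal cells (log2FC 1.61 ± 0.26, adjusted p = 4.2e-04). Library 1 lay closest to the inguinal libraries, and libraries 2 and 3 were well above them. Glycolysis had 10 of 16 genes higher and 2 lower (median 1.02). Pfkl, the liver-type phosphofructokinase that sets the pace of the pathway, was at 146, 280.2 and 254 CPM in perivascular cells, against 40.4, 42.2 and 41 CPM in inguinal cells (log2FC 2.46 ± 0.22, adjusted p = 5.4e-06).

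Of secreted products of fat cells 10 of 14 were higher and 1 lower, or 2 lower without inguinal library 3 (median 2.58). Adipoq, which encodes adiponectin, was at 322, 872 and 1095 CPM in perivascular cells, against 29.5, 32.6 and 21.2 CPM in inguinal cells (log2FC 4.78 ± 0.67, adjusted p = 2.1e-04). Lep, which encodes leptin, was at 2.26, 7.53 and 5.2 CPM in perivascular cells, against 0.429, 0.0774 and 0.0514 CPM in inguinal cells (log2FC 4.83 ± 0.88, adjusted p = 8.8e-04). Nrg4, a growth factor released by brown fat, was at 2.56, 6.5 and 3.75 CPM in perivascular cells against 0.368, 0.89 and 0.36 CPM in inguinal cells. Apln, the ligand of the apelin receptor, was at 14.7, 17.6 and 17.5 CPM in perivascular cells, against 1.47, 2.79 and 1.8 CPM in inguinal cells (log2FC 3.02 ± 0.53, adjusted p = 7.0e-04). Angptl4, an inhibitor of lipoprotein lipase, was the lower one, at 294, 416 and 414 CPM in perivascular cells, against 680.4, 719 and 782 CPM in inguinal cells (log2FC -0.96 ± 0.18, adjusted p = 0.0011).

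**Figure D3:**
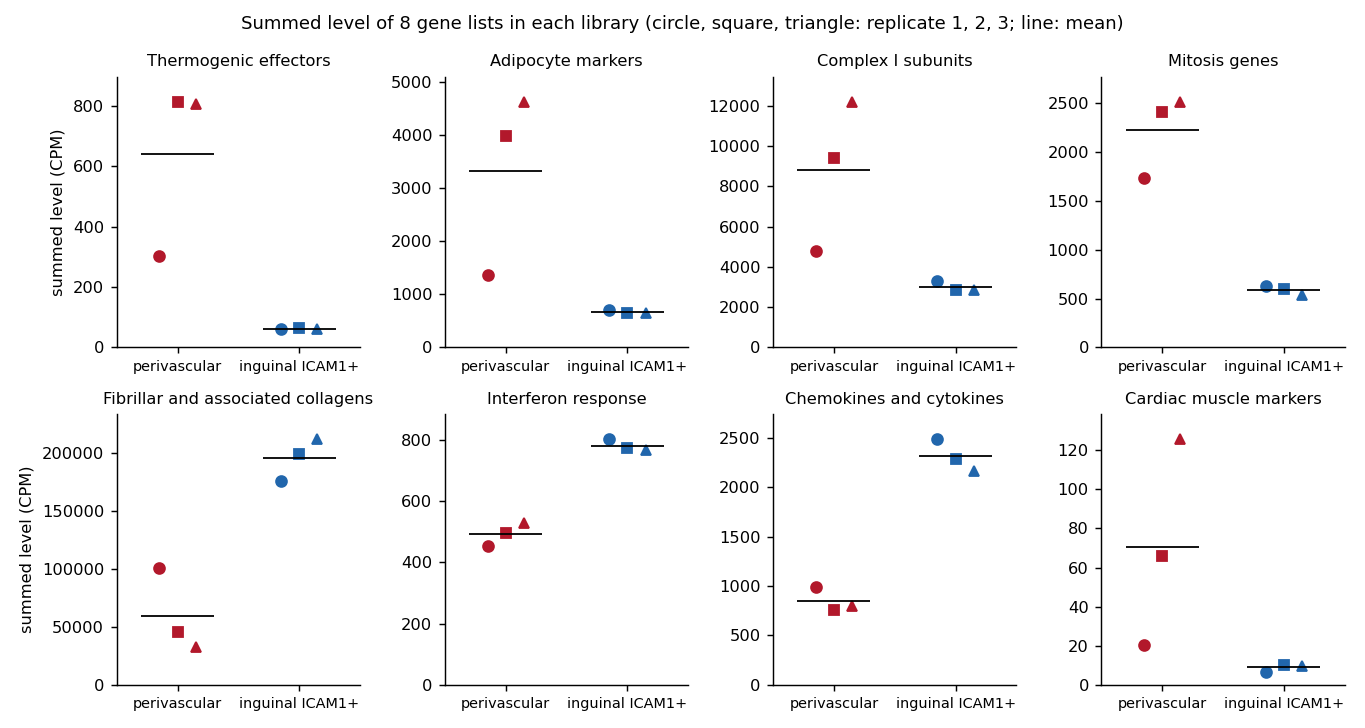
Summed CPM of the members of 8 gene lists in each perivascular library and each inguinal ICAM1+ library. Perivascular library 1 is the lowest of its group for the thermogenic and adipocyte lists, at 302.9 and 1357 CPM, and lies above the inguinal libraries in both.

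Genes of cell division were higher. Of 20 genes of DNA replication 17 were called higher and 3 did not pass (median 1.40), and all 22 of 22 genes of mitosis were higher (median 1.80). The mitosis genes summed to 1733, 2413 and 2514 CPM in perivascular cells, against 631, 593 and 533 CPM in inguinal cells. Ccnb1, cyclin B1 of the entry into mitosis, was at 172, 249.5 and 292 CPM in perivascular cells, against 46.1, 44.5 and 33.2 CPM in inguinal cells (log2FC 2.53 ± 0.20, adjusted p = 2.1e-06). Rrm2, which supplies deoxynucleotides in S phase, was at 259, 459 and 489.6 CPM in perivascular cells, against 62, 71.7 and 61.9 CPM in inguinal cells (log2FC 2.63 ± 0.22, adjusted p = 3.5e-06). Birc5, survivin of the dividing chromosomes, was at 97.1, 177 and 245 CPM in perivascular cells, against 27.1, 29.8 and 21.5 CPM in inguinal cells (log2FC 2.72 ± 0.29, adjusted p = 1.9e-05). For these 3 genes every perivascular library lay above every inguinal library.

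The D-type cyclins and the inhibitors of cyclin-dependent kinases were mixed, 2 higher and 3 lower of 8. These were 25% and 37.5%, against 23.3% and 21.4% over all genes tested. Ccnd1, the D-type cyclin induced by growth factors, was lower, at 18, 12 and 8.1 CPM in perivascular cells, against 42.5, 44.8 and 45.8 CPM in inguinal cells (log2FC -1.80 ± 0.23, adjusted p = 7.4e-05). Cdkn2c, an inhibitor of the kinases that D-type cyclins activate, was higher, at 36.7, 58.2 and 60.4 CPM in perivascular cells, against 8.52, 9.29 and 7.61 CPM in inguinal cells (log2FC 2.61 ± 0.34, adjusted p = 7.8e-05). Cdkn1b, an inhibitor that holds cells out of division, was lower, at 5.31, 3.96 and 3.11 CPM in perivascular cells, against 11.6, 12.1 and 10.1 CPM in inguinal cells (log2FC -1.45 ± 0.31, adjusted p = 0.0024). Ccnd2 was at 323, 283 and 238 CPM in perivascular cells, against 302, 276 and 269 CPM in inguinal cells and was not called (adjusted p = 0.98).

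Promoters of cell cycle genes often carry a CHR element (TTTGAA) near the start site and upstream CCAAT boxes. RefSeq promoter windows of 300 bases (250 before to 50 after the start, GRCm38.p6, both strands searched) were found for 19 of the 22 mitosis genes. TTTGAA stood in 73.7% of these 19 windows and in 17.9% of all 32851 windows, and CCAAT in 89.5% against 37.4%. A match is a description of letters and not a shown binding site. The 4 stretches below, chosen because they hold both motifs after the values were seen, run from 150 bases before to 30 after the start of Cdk1, the mitotic kinase, chr10:69352883-69353062 (minus strand), Ccnb2, a B-type cyclin, chr9:70421525-70421704 (minus strand), Cdc20, an activator of the anaphase-promoting complex, chr4:118437314-118437493 (minus strand), and Ube2c, its ubiquitin-conjugating enzyme, chr2:164769779-164769958 (plus strand). Capitals mark TTTGAA and CCAAT on either strand, so that TTCAAA and ATTGG are the same motifs read from the other strand.
Cdk1: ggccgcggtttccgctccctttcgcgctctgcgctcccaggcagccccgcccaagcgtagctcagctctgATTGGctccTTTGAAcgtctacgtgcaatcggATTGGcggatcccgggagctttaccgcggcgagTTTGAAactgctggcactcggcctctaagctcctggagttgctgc
Ccnb2: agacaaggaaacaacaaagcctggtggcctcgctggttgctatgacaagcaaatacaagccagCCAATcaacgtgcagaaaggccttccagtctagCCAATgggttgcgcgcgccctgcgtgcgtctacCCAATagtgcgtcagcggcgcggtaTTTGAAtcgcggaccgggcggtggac
Cdc20: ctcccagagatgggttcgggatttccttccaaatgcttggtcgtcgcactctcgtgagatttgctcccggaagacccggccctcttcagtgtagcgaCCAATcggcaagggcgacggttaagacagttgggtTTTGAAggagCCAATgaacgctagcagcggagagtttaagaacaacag
Ube2c: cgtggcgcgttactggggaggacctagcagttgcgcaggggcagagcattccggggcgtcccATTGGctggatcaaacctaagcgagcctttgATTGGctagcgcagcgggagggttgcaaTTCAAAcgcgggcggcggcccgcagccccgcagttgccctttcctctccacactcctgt
Of these genes, Cdk1 was at 91.8, 127 and 151 CPM in perivascular cells, against 31.7, 30.4 and 29.7 CPM in inguinal cells (log2FC 2.01 ± 0.18, adjusted p = 6.0e-06). Ube2c was at 89, 149 and 207 CPM in perivascular cells, against 24.3, 20.6 and 18.7 CPM in inguinal cells (log2FC 2.81 ± 0.27, adjusted p = 8.8e-06).

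Genes of the interferon response went the other way. Of 24 tested 18 were lower in perivascular preadipocytes and 6 did not pass (median -1.18). Irf9, the DNA-binding part of the complex that answers type I interferon, was at 20.7, 19.4 and 19.1 CPM in perivascular cells, against 56.9, 64.3 and 67.7 CPM in inguinal cells (log2FC -1.68 ± 0.13, adjusted p = 2.0e-06). Irf7, which amplifies interferon production, was at 2.21, 2.84 and 2.41 CPM in perivascular cells, against 8.95, 7.86 and 9.2 CPM in inguinal cells (log2FC -1.80 ± 0.20, adjusted p = 3.1e-05). Mx2, an antiviral GTPase, was at 1.08, 0.831 and 0.483 CPM in perivascular cells, against 3.31, 3.64 and 3.6 CPM in inguinal cells (log2FC -2.12 ± 0.30, adjusted p = 1.5e-04). Ifi27 was at 137, 207 and 217 CPM in perivascular cells, against 198, 189 and 180.2 CPM in inguinal cells, with overlapping groups and no call.

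The interferon-stimulated response element is built from repeats of GAAANNGAA, where N is any base. RefSeq windows were found for 18 of the 25 listed interferon genes, 22 windows in all. The motif stood in 54.5% of them and in 8.56% of all 32851 windows. The 3 stretches below, chosen after the values were seen because they hold the motif, are those of Isg15, a ubiquitin-like antiviral protein, chr4:156200789-156200968 (minus strand), Oas1a, an RNA-sensing synthetase, chr5:120907496-120907675 (minus strand), and Gbp2, a guanylate-binding protein, chr3:142620513-142620692 (plus strand), from 150 bases before to 30 after the start. Capitals mark GAAANNGAA on either strand, with overlapping matches run together.
Isg15: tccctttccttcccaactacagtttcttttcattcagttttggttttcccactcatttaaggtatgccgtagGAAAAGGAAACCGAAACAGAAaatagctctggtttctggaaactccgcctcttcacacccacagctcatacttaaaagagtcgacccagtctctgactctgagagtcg
Oas1a: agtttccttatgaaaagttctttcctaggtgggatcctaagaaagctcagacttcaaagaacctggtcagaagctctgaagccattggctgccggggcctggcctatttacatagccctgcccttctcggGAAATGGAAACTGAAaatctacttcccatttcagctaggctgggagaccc
Gbp2: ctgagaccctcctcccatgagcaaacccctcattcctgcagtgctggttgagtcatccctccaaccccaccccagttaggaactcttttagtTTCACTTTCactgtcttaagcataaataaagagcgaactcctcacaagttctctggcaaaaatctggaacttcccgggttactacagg
Isg15 was at 1.82, 2.35 and 3.59 CPM in perivascular cells, against 4.23, 5.3 and 4.47 CPM in inguinal cells (log2FC -0.86 ± 0.31, adjusted p = 0.038). Oas1a was at 0, 0.0978 and 0.161 CPM in perivascular cells, against 0.797, 0.736 and 1.03 CPM in inguinal cells (log2FC -3.23 ± 0.74, adjusted p = 0.0038). Gbp2 was at 17.6, 14.9 and 15.2 CPM in perivascular cells, against 35.3, 32.1 and 39 CPM in inguinal cells (log2FC -1.15 ± 0.18, adjusted p = 3.0e-04).

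Presentation of peptides on MHC class I was lower at 12 of 19 genes and higher at 2, or 1 without perivascular library 2 or 3 or inguinal library 2 or 3 (median -0.91). The classical heavy chain H2-K1 was at 150.5, 115 and 106 CPM in perivascular cells, against 331, 328 and 326 CPM in inguinal cells (log2FC -1.40 ± 0.18, adjusted p = 7.0e-05). The light chain B2m was at 287, 257 and 291 CPM in perivascular cells, against 545, 524 and 499 CPM in inguinal cells (log2FC -0.91 ± 0.16, adjusted p = 7.3e-04). The heavy chains of this family are close copies of one another, so how their reads were shared out is uncertain. Psme2, a subunit of the proteasome activator, was the opposite, at 169.7, 288 and 390.4 CPM in perivascular cells, against 160.1, 145 and 141 CPM in inguinal cells (log2FC 0.93 ± 0.24, adjusted p = 0.0076).

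Chemokines and cytokines were lower at 17 of 22 genes and higher at 2, or 1 without perivascular or inguinal library 1 (median -2.31). Il6, a cytokine of inflammation, was at 4.82, 4.74 and 3.97 CPM in perivascular cells, against 109, 96.6 and 85.6 CPM in inguinal cells (log2FC -4.42 ± 0.20, adjusted p = 3.5e-08). Ccl2, which attracts monocytes, was at 11.1, 14.8 and 13 CPM in perivascular cells, against 257, 218 and 199.7 CPM in inguinal cells (log2FC -4.12 ± 0.22, adjusted p = 8.8e-08). Cxcl1, which attracts neutrophils, was at 89, 97.4 and 117 CPM in perivascular cells, against 714, 599 and 515 CPM in inguinal cells (log2FC -2.59 ± 0.20, adjusted p = 1.5e-06). The perivascular libraries lay close together for these genes, library 1 included. Cxcl12, the stromal ligand of Cxcr4, was at 487, 353 and 366 CPM in perivascular cells, against 622, 616 and 648 CPM in inguinal cells, a smaller difference (-0.65 ± 0.16).

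Complement genes were lower for 8 and higher for 3 of 16, or higher for 1 with the stricter filter on low counts. The share higher, 18.75%, was not far from the 23.3% over all genes tested, while 50% were lower, against 21.4%. C4b, the central component of the classical pathway, was at 44.1, 31.1 and 24.8 CPM in perivascular cells, against 286, 319 and 446 CPM in inguinal cells (log2FC -3.39 ± 0.30, adjusted p = 5.1e-06). Cd55, which shields cells from complement and marks early stromal progenitors, was at 8.5, 9.88 and 9.66 CPM in perivascular cells, against 107, 114 and 90.8 CPM in inguinal cells (log2FC -3.48 ± 0.15, adjusted p = 3.5e-08).

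Early response and stress genes, which are switched on within minutes by growth factors and by handling of tissue, were lower at 17 of 22 and higher at 1, a call lost without any 1 library but perivascular library 2 (median -1.70). Hspa1b, an inducible heat shock protein, was at 74.9, 51.7 and 46.1 CPM in perivascular cells, against 669, 711 and 653 CPM in inguinal cells (log2FC -3.56 ± 0.20, adjusted p = 1.2e-07). Its near-identical neighbour Hspa1a was at 20.7, 14.6 and 13.1 CPM in perivascular cells, against 201, 203 and 198 CPM in inguinal cells, and the share of reads between both is uncertain. Egr3, an early growth response factor, was at 0.885, 1.56 and 1.72 CPM in perivascular cells, against 16.4, 17.4 and 13.9 CPM in inguinal cells (log2FC -3.51 ± 0.31, adjusted p = 4.5e-06). Egr1 was at 1968, 1313 and 1110 CPM in perivascular cells, against 2281, 2371 and 1852 CPM in inguinal cells and was not called, and Fos, which was called, was at 1366, 854 and 655 CPM in perivascular cells, against 1946, 1990 and 2122 CPM in inguinal cells (log2FC -1.07 ± 0.23, adjusted p = 0.0027). Both depots were digested with the same enzymes per the labels. Whether handling differed between the depots was not tested.

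Surface proteins of stromal cells were lower at 15 of 19 genes and higher at 1, or 2 without perivascular library 2 or 3 (median -1.35). Thy1, a mesenchymal surface glycoprotein, was at 2.31, 1.03 and 0.751 CPM in perivascular cells, against 30.1, 24.8 and 22.1 CPM in inguinal cells (log2FC -4.22 ± 0.34, adjusted p = 2.2e-06). Cd44, a receptor of hyaluronan, was at 46, 23.5 and 22.6 CPM in perivascular cells, against 259, 235 and 224 CPM in inguinal cells (log2FC -2.96 ± 0.25, adjusted p = 3.4e-06). Dpp4, the marker by which the inguinal progenitors of the study were sorted, was at 5.41, 7.14 and 2.68 CPM in perivascular cells, against 34, 35.2 and 27 CPM in inguinal cells (log2FC -2.65 ± 0.27, adjusted p = 1.7e-05). Dlk1, the preadipocyte factor that holds back differentiation, was at 812, 941 and 952 CPM in perivascular cells, against 2318, 2392 and 2372 CPM in inguinal cells (log2FC -1.39 ± 0.18, adjusted p = 9.4e-05). Icam1, by which the inguinal cells were sorted, was at 52.9, 35.1 and 30.4 CPM in the perivascular libraries and 498, 485 and 507 CPM in the inguinal libraries. Pdgfrb, a receptor of perivascular mesenchyme, was at 164, 83.6 and 43.6 CPM in perivascular cells, against 172, 186 and 242 CPM in inguinal cells, and its adjusted p of 0.049 became 0.077 with the replicate block.

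In the Ly6 family, small GPI-linked surface proteins, 7 of 11 were lower and 1 was higher, or 2 without perivascular library 1. With the replicate block 6 were lower, as the call of Ly6g6c was lost. Ly6c1 was at 2.26, 1.71 and 3.81 CPM in perivascular cells, against 326, 301 and 301 CPM in inguinal cells (log2FC -6.90 ± 0.31, adjusted p = 3.5e-08). Ly6e was at 78.2, 95.8 and 103 CPM in perivascular cells, against 318, 308 and 320 CPM in inguinal cells (log2FC -1.77 ± 0.15, adjusted p = 3.2e-06). Ly6d was at 0.0492, 0 and 0 CPM in perivascular cells, against 6.92, 9.33 and 5.19 CPM in inguinal cells, with a single perivascular count in all (439-fold lower by CPM, 95% interval 78.4 to 17380, counting error only). The ratio was 288 without perivascular library 2, and without library 1, which held that count, the difference was at least 96.2-fold. Lypd1 was the one that was higher, at 4.28, 1.76 and 1.99 CPM in perivascular cells, against 0.368, 0.232 and 0.308 CPM in inguinal cells (log2FC 3.14 ± 0.61, adjusted p = 0.0012). Ly6h was at 3.34, 5.23 and 6.6 CPM in perivascular cells, against 2.7, 2.83 and 3.19 CPM in inguinal cells and was not called.

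**Figure D4:**
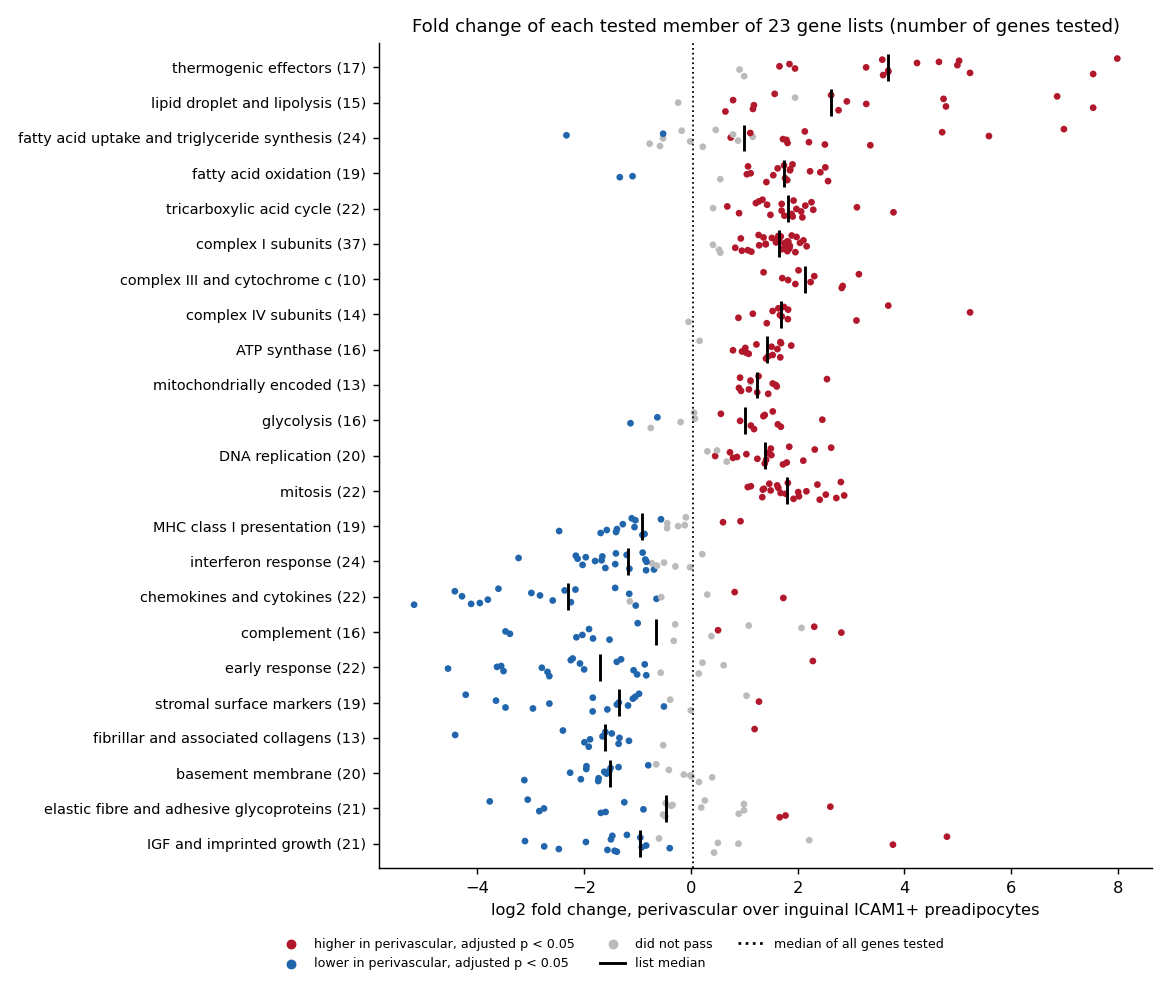
Log2 fold change, perivascular over inguinal ICAM1+ preadipocytes, of every tested member of 23 gene lists, with called members distinguished from the others. The members of the mitosis list all lie to the right of 0, and those of the respiratory chain lists mostly do. Those of the interferon, chemokine and collagen lists lie mostly to the left.

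Extracellular matrix genes differed by kind, and the collagens and the basement membrane were mostly lower. Fibrillar and associated collagens were lower at 11 of 13 genes and higher at 1, a call lost without perivascular library 2 or inguinal library 2 or 3 (median -1.60). Col5a3, a chain of type V collagen, was at 65, 67.3 and 73.7 CPM in perivascular cells, against 1413, 1452 and 1537 CPM in inguinal cells (log2FC -4.42 ± 0.27, adjusted p = 2.3e-07), where the perivascular libraries were alike. Col1a1 was at 15540, 6759 and 4204 CPM in perivascular cells, against 31290, 36720 and 37680 CPM in inguinal cells (log2FC -2.0 ± 0.44, adjusted p = 0.0029), where library 1 was highest of its group and nearest to the inguinal libraries. Col1a2 was at 28170, 10980 and 7624 CPM in perivascular cells, against 31180, 35630 and 37850 CPM in inguinal cells, and its adjusted p of 0.03 became 0.12 without perivascular library 2 and also passed 0.05 without perivascular library 3 or any 1 inguinal library.

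The basement membrane, the sheet that surrounds fat cells and vessels, was lower at 13 of 20 genes while 7 did not pass (median -1.52). Col18a1, the source of endostatin, was at 21.8, 42.1 and 31.4 CPM in perivascular cells, against 253, 275 and 301 CPM in inguinal cells (log2FC -3.12 ± 0.30, adjusted p = 8.7e-06). Col4a1, the network-forming collagen, was at 1005, 596 and 500.3 CPM in perivascular cells, against 2598, 2883 and 3297 CPM in inguinal cells (log2FC -2.06 ± 0.32, adjusted p = 3.2e-04). Sparc, a collagen-binding protein, was at 14450, 7151 and 6190 CPM in perivascular cells, against 14350, 14450 and 14830 CPM in inguinal cells and was not called.

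Elastic fibre and adhesive genes were higher at 3 and lower at 8 of 21, with 15 lower without perivascular library 1. Higher members numbered 5 without perivascular library 2 and 6 without perivascular library 3. Eln, elastin, was at 8561, 3723 and 2135 CPM in perivascular cells, against 1495, 1458 and 1600 CPM in inguinal cells (log2FC 1.66 ± 0.39, adjusted p = 0.0044). Ltbp2, a fibrillin-binding protein, was at 116, 44.2 and 26.4 CPM in perivascular cells, against 10.7, 9.76 and 10.1 CPM in inguinal cells (log2FC 2.61 ± 0.46, adjusted p = 8.9e-04). Both were highest in library 1, and every perivascular library lay above every inguinal one. Fn1, fibronectin, was lower, at 796, 419.9 and 325 CPM in perivascular cells, against 3136, 3585 and 4332 CPM in inguinal cells (log2FC -2.84 ± 0.37, adjusted p = 7.9e-05), as was Tnxb, a tenascin of loose connective tissue, at 163, 128 and 139 CPM in perivascular cells, against 1135, 1217 and 1234 CPM in inguinal cells (log2FC -3.06 ± 0.17, adjusted p = 1.2e-07).

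Small leucine-rich proteoglycans, which space collagen fibrils, were higher at 4 and lower at 6 of 12, and higher at 2 when both groups were fitted alone. With the replicate block 3 were higher, as the call of Ogn was lost. Lum was at 1402, 1090 and 1088 CPM in perivascular cells, against 3357, 3545 and 3155 CPM in inguinal cells (log2FC -1.49 ± 0.18, adjusted p = 5.1e-05). Epyc, a proteoglycan of cartilage whose exons overlap another gene over 40% of their length, was at 15.4, 24.8 and 25.5 CPM in perivascular cells, against 1.47, 1.2 and 0.925 CPM in inguinal cells (log2FC 4.19 ± 0.30, adjusted p = 8.2e-07). Matrix proteases and their inhibitors were lower at 10 of 18, and 8 did not pass. Adamts1, a protease of versican, was at 373, 201 and 158 CPM in perivascular cells, against 989.9, 1032 and 988 CPM in inguinal cells (log2FC -2.04 ± 0.26, adjusted p = 7.9e-05).

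Homeobox genes of the Hox clusters, which record position along the body axis, differed by paralogue group. Of the genes of groups 1 to 5, expressed from anterior levels on, 7 of 11 were higher in perivascular cells and 4 did not pass (median 1.52). Groups 6 to 8 had 3 higher and 2 lower of 7, or 5 higher with library-total scaling. In the main fit these were 42.9% and 28.6%, against 23.3% and 21.4% over all genes tested. Of groups 9 and 10, expressed at posterior levels, 5 of 6 were lower and 1 did not pass (median -2.58), and no gene of groups 11 to 13 was tested.

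Hoxa5, a gene of thoracic levels, was at 29.9, 43.1 and 53 CPM in perivascular cells, against 1.23, 1.59 and 1.18 CPM in inguinal cells (log2FC 4.96 ± 0.70, adjusted p = 2.1e-04). Hoxb5 was at 7.23, 4.84 and 4.45 CPM in perivascular cells, against 0.368, 0.155 and 0.36 CPM in inguinal cells (log2FC 4.25 ± 0.35, adjusted p = 3.1e-06). Hoxa7 was at 28.2, 29 and 33.5 CPM in perivascular cells, against 6.31, 8.13 and 6.17 CPM in inguinal cells (log2FC 2.13 ± 0.17, adjusted p = 2.8e-06). In the middle of the clusters Hoxc8 was at 26.8, 26 and 27.8 CPM in perivascular cells, against 20.7, 22.6 and 20.6 CPM in inguinal cells and was not called, and Hoxc6 was lower, at 8.85, 7.63 and 10.1 CPM in perivascular cells, against 21.4, 21.6 and 19.7 CPM in inguinal cells (log2FC -1.24 ± 0.19, adjusted p = 3.1e-04). Hoxa10 was at 0.393, 0.0978 and 0.376 CPM in perivascular cells, against 28.1, 28.3 and 24.9 CPM in inguinal cells (log2FC -6.53 ± 0.41, adjusted p = 3.1e-07). Hoxc10 had a single count in the 3 perivascular libraries together, at 0, 0 and 0.0536 CPM in perivascular cells, against 19.6, 19.6 and 22.6 CPM in inguinal cells (1222-fold lower by CPM, 95% interval 219 to 48320, counting error only). The ratio was 804 without perivascular library 1 and 802 without library 2, and without library 3, which held that count, the difference was at least 279.7-fold. Hoxb9, alone of its group, was at 0.983, 1.03 and 1.29 CPM in perivascular cells, against 0.919, 0.774 and 0.771 CPM in inguinal cells and was not called. Hoxb2, called higher with an adjusted p of 0.049, had 0.057 with the replicate block.

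**Figure D5:**
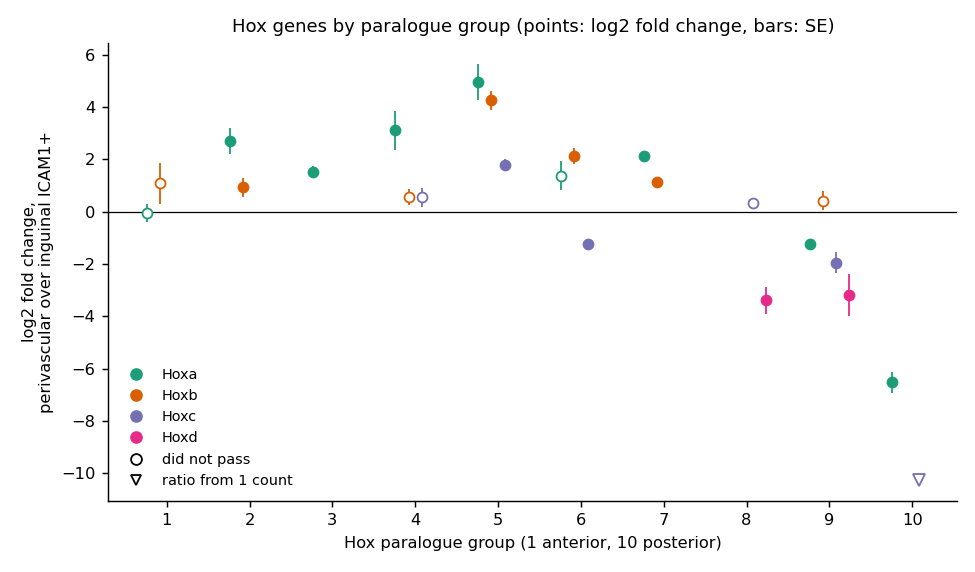
Log2 fold change ± SE, perivascular over inguinal ICAM1+ preadipocytes, of the tested Hox genes by paralogue group from 1 to 10, with open points for genes that did not pass the test and a triangle for Hoxc10, drawn at its ratio from 1 perivascular count. Called genes of groups 1 to 5 lie above 0 and called genes of groups 9 and 10 below 0.

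Other regional transcription factors were higher at 9 and lower at 12 of 35. These were 25.7% and 34.3%, against 23.3% and 21.4% over all genes tested, so the share higher was near that of all genes. Tbx15 was at 1.82, 0.782 and 0.59 CPM in perivascular cells, against 79, 75 and 82.5 CPM in inguinal cells (log2FC -6.19 ± 0.33, adjusted p = 8.8e-08). En1, a homeobox gene of ventral limb and of some dermal lineages, had no count in any perivascular library and was at 4.23, 4.07 and 4.42 CPM in inguinal cells, at least 83.6-fold lower with 3 counts over the group as the floor. That bound was 55.0 without perivascular library 1 and 54.9 without library 2, where the floor rests on fewer counts. Pitx1, a hindlimb factor, likewise had none and was at 2.76, 0.426 and 0.874 CPM in inguinal cells, at least 23.5-fold lower. That bound was 12.2 without inguinal library 1, which held most of the counts, and 15.4 without perivascular library 1 or 2. Prrx1, a factor of limb and body wall mesenchyme, was at 69.4, 50.8 and 49.7 CPM in perivascular cells, against 204, 236 and 233 CPM in inguinal cells (log2FC -1.99 ± 0.19, adjusted p = 7.8e-06). Foxc2, a forkhead factor of vessels and paraxial mesoderm, was higher, at 14.7, 9.48 and 7.03 CPM in perivascular cells, against 0.306, 0.31 and 0.257 CPM in inguinal cells (log2FC 5.12 ± 0.95, adjusted p = 0.0013). Tbx20, a factor of heart development, was at 0.295, 1.76 and 0.805 CPM in perivascular cells, against 0.0613, 0 and 0.103 CPM in inguinal cells, with 3 inguinal counts in all (19.7-fold higher by CPM, 95% interval 6.41 to 98.3, counting error only). The ratio was 11.1 without perivascular library 2, 11.4 without inguinal library 2 and 40.4 without inguinal library 3.

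Of 31 genes of Wnt signalling, which restrains fat cell formation, 8 were higher and 5 lower, shares near those over all genes tested (23.3% higher and 21.4% lower). Lower members numbered 2 without perivascular library 2 and 3 without inguinal library 1 or 2. Sfrp1, a secreted Wnt inhibitor, was at 218, 173 and 117 CPM in perivascular cells, against 12.9, 16.2 and 12.6 CPM in inguinal cells (log2FC 3.60 ± 0.58, adjusted p = 5.0e-04). Rspo1, which strengthens Wnt signals, was at 7.62, 10.7 and 7.4 CPM in perivascular cells, against 0.674, 0.426 and 1.13 CPM in inguinal cells (log2FC 3.54 ± 0.56, adjusted p = 3.2e-04). The R-spondin receptor Lgr5 was at 1.43, 1.32 and 1.18 CPM in perivascular cells, against 14.7, 15.5 and 13.2 CPM in inguinal cells (log2FC -3.46 ± 0.25, adjusted p = 8.8e-07). The ligands Wnt5b and Wnt2 differed in direction: Wnt5b was at 28.2, 12.3 and 8.74 CPM in perivascular cells against 1.78, 1.78 and 1.49 CPM in inguinal cells, and Wnt2 at 2.51, 1.76 and 1.66 CPM against 27.6, 23.6 and 20.6 CPM.

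BMP signalling, which commits cells to fat, had 8 higher and 5 lower of 27, with 9 lower without perivascular library 1 and 5 higher without perivascular library 3 or inguinal library 1, in shares not far from those over all genes tested. Acvr1c, the activin-like receptor of mature fat cells, was at 8.55, 20.7 and 21.2 CPM in perivascular cells, against 0.245, 0.426 and 0.308 CPM in inguinal cells (log2FC 5.62 ± 0.44, adjusted p = 1.8e-06). Grem1, a secreted antagonist, was lower, at 0.0983, 0.196 and 0.0536 CPM in perivascular cells, against 2.45, 1.55 and 2.88 CPM in inguinal cells (log2FC -4.20 ± 0.52, adjusted p = 6.4e-05). TGF-beta signalling, which favours matrix production, was lower at 11 and higher at 2 of 19, with 7 lower without perivascular or inguinal library 2. The receptor Tgfbr2 was at 150, 68.2 and 44.2 CPM in perivascular cells, against 328, 323 and 359.5 CPM in inguinal cells (log2FC -1.95 ± 0.33, adjusted p = 5.6e-04). The ligand Tgfb1 was at 4.82, 3.72 and 3.81 CPM in perivascular cells, against 12.9, 16.1 and 15.6 CPM in inguinal cells (log2FC -1.85 ± 0.20, adjusted p = 2.8e-05). Ccn2, a matricellular protein induced by TGF-beta, was the opposite, at 135, 49.1 and 37.4 CPM in perivascular cells, against 15.4, 14 and 13.3 CPM in inguinal cells (log2FC 2.37 ± 0.45, adjusted p = 0.0014). Its relative Ccn1 was at 742, 332 and 267 CPM in perivascular cells, against 1843, 1807 and 1733 CPM in inguinal cells (log2FC -2.01 ± 0.31, adjusted p = 2.6e-04).

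FGF and PDGF signalling was lower at 12 and higher at 4 of 26. These were 46.15% and 15.38%, against 21.4% and 23.3% over all genes tested. Klb, the co-receptor of FGF21, was higher, at 22.1, 46.1 and 35.8 CPM in perivascular cells, against 4.53, 6.08 and 4.11 CPM in inguinal cells (log2FC 2.81 ± 0.32, adjusted p = 3.1e-05). Fgf1, a growth factor of fat, was lower, at 1.13, 2 and 0.697 CPM in perivascular cells, against 9.44, 11.5 and 9.25 CPM in inguinal cells (log2FC -2.96 ± 0.32, adjusted p = 2.6e-05). In the IGF and imprinted growth list 14 of 21 were lower and 2 higher, or 4 higher when both groups were fitted alone (median -0.95). H19, an imprinted RNA of fetal growth, was at 171, 212 and 360.2 CPM in perivascular cells, against 1489, 1391 and 1256 CPM in inguinal cells (log2FC -2.48 ± 0.25, adjusted p = 1.5e-05). Igfbp6, which binds IGF2, was at 23.6, 29.7 and 25.1 CPM in perivascular cells, against 234, 236 and 207 CPM in inguinal cells (log2FC -3.11 ± 0.20, adjusted p = 3.2e-07). Nnat, an imprinted gene of fat and neuroendocrine cells, was higher, at 158, 474 and 354 CPM in perivascular cells, against 13.5, 10.1 and 11.9 CPM in inguinal cells (log2FC 4.80 ± 0.37, adjusted p = 1.9e-06), as was Igfbp2, at 12.3, 17.4 and 13.6 CPM in perivascular cells, against 1.16, 0.813 and 1.18 CPM in inguinal cells (log2FC 3.78 ± 0.72, adjusted p = 0.0014). Igf2 shares 64% of its annotated exon length with another gene, so its value, at 2.51, 4.4 and 5.36 CPM in perivascular cells, against 28.2, 25.1 and 29.2 CPM in inguinal cells, is uncertain.

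Receptors for transmitters, peptides and prostaglandins were lower at 10 of 22 and higher at 3, or 1 without inguinal library 3. Agtr1a, the type 1 receptor of angiotensin II, was at 17.9, 12.9 and 10.2 CPM in perivascular cells, against 134, 138 and 146 CPM in inguinal cells (log2FC -3.35 ± 0.19, adjusted p = 1.2e-07). Agtr2, the type 2 receptor, was at 692, 538 and 424 CPM in perivascular cells, against 1630, 1756 and 1627 CPM in inguinal cells (log2FC -1.60 ± 0.18, adjusted p = 3.7e-05). Npy2r was at 0.0983, 0 and 0.161 CPM in perivascular cells, against 17.2, 14.4 and 22.2 CPM in inguinal cells (log2FC -7.62 ± 0.59, adjusted p = 1.6e-06). Ptger3, a prostaglandin E2 receptor that lowers cyclic AMP, was higher, at 30.1, 41.4 and 44.9 CPM in perivascular cells, against 8.58, 11 and 7.66 CPM in inguinal cells (log2FC 2.09 ± 0.47, adjusted p = 0.004).

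Steroid receptors and genes of the glucocorticoid response were lower at 7 and higher at 3 of 14. The share higher, 21.4%, was near the 23.3% over all genes tested. Esr1, the oestrogen receptor α, was at 10.2, 3.03 and 4.02 CPM in perivascular cells, against 63.5, 72.4 and 65.4 CPM in inguinal cells (log2FC -3.54 ± 0.41, adjusted p = 4.9e-05). The glucocorticoid receptor Nr3c1 was at 158, 119.6 and 118 CPM in perivascular cells, against 144, 146 and 141 CPM in inguinal cells and was not called. Its targets differed: Fkbp5 was higher, at 22.5, 27 and 26.8 CPM in perivascular cells, against 5.64, 8.9 and 6.84 CPM in inguinal cells (log2FC 1.83 ± 0.43, adjusted p = 0.0047), and Tsc22d3 lower, at 87.5, 94.6 and 112 CPM in perivascular cells, against 161, 197 and 154 CPM in inguinal cells (log2FC -0.80 ± 0.16, adjusted p = 0.0017). Of the sex-linked genes, Xist, the RNA of the inactive X chromosome, was at 73.7, 101 and 75.7 CPM in perivascular cells, against 68.9, 121 and 90 CPM in inguinal cells and was not called (adjusted p = 0.64), and neither was the Y-linked Ddx3y, at 80.8, 44.2 and 45.2 CPM in perivascular cells, against 87.6, 64.3 and 85.3 CPM in inguinal cells.

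The retinoid list had 7 higher and 4 lower of 18, and the share lower, 22.2%, was near the 21.4% over all genes tested. The receptor Rarb, which retinoic acid itself induces, was at 11.1, 7.68 and 6.38 CPM in perivascular cells, against 2.94, 2.13 and 1.54 CPM in inguinal cells (log2FC 1.93 ± 0.28, adjusted p = 1.9e-04). Rarg was at 14.3, 10.9 and 8.69 CPM in perivascular cells, against 31.9, 34.2 and 38.7 CPM in inguinal cells (log2FC -1.63 ± 0.24, adjusted p = 2.2e-04). Axon guidance genes were higher at 6 and lower at 7 of 34, with 15 lower without perivascular library 1 and 4 without perivascular library 2 or inguinal library 3, and 10 higher with library-total scaling. These shares too were near those over all genes tested. Plxna4, a semaphorin receptor, was at 19.2, 9.39 and 9.6 CPM in perivascular cells, against 2.27, 1.7 and 1.23 CPM in inguinal cells (log2FC 2.88 ± 0.37, adjusted p = 7.9e-05). Gdnf, a growth factor of sympathetic and enteric nerves, was at 0, 0.196 and 0.215 CPM in perivascular cells, against 1.16, 1.24 and 1.54 CPM in inguinal cells (log2FC -3.22 ± 0.89, adjusted p = 0.011).

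Markers of other cell types moved with the groups as well, in both directions. Cardiac muscle markers were higher at 7 of 8, and their sum was 20.4, 66 and 126 CPM in perivascular cells against 6.8, 10.1 and 9.7 CPM in inguinal cells. Myl7, the atrial myosin light chain, was at 3.29, 18.4 and 39.1 CPM in perivascular cells, against 0.122, 0.348 and 0 CPM in inguinal cells (log2FC 6.81 ± 0.96, adjusted p = 2.1e-04). This order of the perivascular libraries, with library 1 lowest, is also that of the adipocyte and complex I sums. An order shared by 3 libraries cannot show a link between lists, and what sets it was not tested. Mesothelial markers were higher at 6 and lower at 4 of 10, with sums of 113, 137 and 92.4 CPM against 107, 119.7 and 118 CPM. Msln, mesothelin, was at 10.6, 15.7 and 3.81 CPM in perivascular cells, against 0.49, 0.155 and 0.36 CPM in inguinal cells (log2FC 4.96 ± 0.59, adjusted p = 6.2e-05). The keratin Krt8 was at 1.23, 1.17 and 0.483 CPM in perivascular cells, against 9.74, 13.2 and 11.6 CPM in inguinal cells (log2FC -3.56 ± 0.46, adjusted p = 7.9e-05).

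Schwann cell and neural markers were lower at 6 and higher at 2 of 8. The share higher, 25%, was near the 23.3% over all genes tested. Higher ones numbered 1 with the replicate block and 0 or 1 without perivascular library 2 or 3 or inguinal library 2 or 3. Sums of these markers were 31.3, 31.4 and 19 CPM in perivascular cells, against 191, 217 and 206 CPM in inguinal cells. Th, the enzyme of catecholamine synthesis, was at 4.82, 1.37 and 0 CPM in perivascular cells and had no inguinal count. Mast cell markers were lower at 5 of 7, and Tpsb2, a mast cell tryptase, was at 2.26, 1.91 and 2.09 CPM in perivascular cells, against 30.4, 33 and 16.4 CPM in inguinal cells (log2FC -3.67 ± 0.61, adjusted p = 6.2e-04). Epithelial markers were lower at 6 of 7. Krt5, a basal keratin, had no perivascular count and was at 2.51, 2.52 and 1.95 CPM in inguinal cells, at least 46.3-fold lower with the same floor. That bound was 30.5 without perivascular library 1 and 30.4 without library 2.

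Of 12 macrophage and haematopoietic markers 5 were lower, of 10 endothelial markers 3, and of 8 pericyte markers 2, and the others did not pass. The endothelial and pericyte shares, 30% and 25%, were not far from the 21.4% over all genes tested. The macrophage count ran from 1, without perivascular library 3, to 3, without perivascular library 1, when any 1 library other than inguinal library 3 was left out. The pericyte count was 4 without perivascular library 1, and 1 endothelial marker, Vwf, was higher with the replicate block (adjusted p = 0.029). Pecam1, an endothelial adhesion protein, was at 25.5, 13.1 and 16.3 CPM in perivascular cells, against 21.1, 23 and 28.4 CPM in inguinal cells and was not called. Notch3, a receptor of mural cells, was at 44.5, 26.4 and 27.6 CPM in perivascular cells, against 125, 134 and 134 CPM in inguinal cells (log2FC -2.0 ± 0.27, adjusted p = 1.2e-04). The aorta was digested with the fat, and whether cells of its wall passed the sort was not tested. Of 10 smooth muscle markers 1 was higher and 2 were lower. Without 1 library these counts ran from 0 to 2 higher and from 1 to 2 lower, and 1 was lower with the replicate block. In the main fit these were 10% and 20% of the list, against 23.3% and 21.4% over all genes tested. Acta2, smooth muscle actin, was at 365, 353 and 246 CPM in perivascular cells, against 229, 208 and 265 CPM in inguinal cells, and Myh11, its myosin, at 37.2, 45.5 and 28.8 CPM in perivascular cells, against 55.1, 52.3 and 82.6 CPM in inguinal cells, with neither called. The part of these cell types in the differences of the other lists was not tested.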

How the data were processed

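The deposited table of raw values gives 1 read count per gene and library, not normalized. Per the submitters' processing notes, reads were aligned with STAR 2.5.2a to mm10 and DESeq2 1.26.0 was used. The counting tool, its annotation and its use of strand were not given in the sources used here, so genes that overlap others are uncertain. Per the labels' protocols, libraries came from sorted cells with a low-input SMART-Seq kit, which covers whole poly(A) transcripts and does not mark strand. The tables of normalized and regularised log2 values that the authors deposited were not used.

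Counts were analysed in R 4.3.3 with edgeR 4.0.16, after filterByExpr with a minimum count of 10. The fit was a quasi-likelihood model of all 12 libraries with 4 group means (glmQLFit and glmQLFTest, robust, trimmed-mean scaling), and 2-sided p-values were adjusted over 18855 genes. Totals of the 6 libraries compared were 15614628 to 25674461 counts. The fitting steps were checked on simulated counts with few changed genes, balanced in direction, and no outlying library. That check does not bear on the scaling or on perivascular library 1 in these data. Alternatives used limma 3.58.1 and DESeq2 1.42.0.

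Same-numbered libraries share a pool of mice per the labels. Their deviations from the group means correlated at -0.0940, 0.00789 and -0.0882 for pools 1, 2 and 3. The main fit has no block, and the blocked value stands beside each result it changes.

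Genes were named by rule: the 12 highest and 12 lowest called changes without overlap whose higher group averaged at least 10 CPM, the 10 most abundant called genes, up to 6 largest called and 3 most abundant members of each gene list, whole small families and 12 markers. Genes named outside it are said to be, and 4 genes that the rule names are not reported here. The population pair, gene lists and rule were chosen with earlier results of these data known. Of 953 listed genes, 893 were tested, 17 were not analysed here and the rest did not pass the filter on low counts, so counts are over the members tested. Coordinates and exon overlaps are those of GENCODE release 21 for mouse (GRCm38), which gave an identifier for 31074 of the 31099 genes, and promoter sequences are from RefSeq (GRCm38.p6). P-values measure the spread between libraries of a group, each from its own pool, estimated over all 12 libraries.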

Additional observations from a re-analysis of the deposited data

How the results depend on the processing

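The count of called genes, 8440, stayed within 1.5 times under every setting run, and the count of lower genes passed that bound with limma-voom alone. It was 8414 with DESeq2 size factors, 8788 with library totals, 8013 with no filter, 7953 with a stricter one, 8968 with DESeq2's Wald test, 12569 with limma-voom and library weights (6061 of them lower, against 4038), and 8220 with the 6 libraries alone. With the replicate block it was 7863, and 7322 with the block and the 6 libraries alone. Leaving out 1 library gave 6587 to 9446 calls, 3300 to 4512 higher and 3191 to 4934 lower. Leaving out both libraries of pool 1, an alternative added after seeing the data, gave 8322. Of 383 called genes among those the rule names, 342 kept their call without any 1 library and 335 under every setting that tested them. Of the 442 named genes, 420 were tested with the stricter filter and 433 with the 6 libraries alone. Only 1 gene changed sign with a call in the main fit or in the setting, and sign changes without either call were not counted. That gene, Kcnj8, is a pericyte potassium channel and was not called in the main fit (0.19). It was at -0.31 with limma-voom, -0.50 to 0.41 without 1 library and -0.52 without pool 1, and the cause was not tested. The block ended the calls of Cebpb, Cox6a1, Elavl4, Hoxb2, Ly6g6c, Ogn, Pdgfrb and Smtn, added Cd36 and Vwf, and changed no other call among the named genes. Counts of small lists that moved by over 1.5 times without 1 library are given beside each list, as are folds of genes with few counts, an alternative also added after seeing the data. With 3 pools a group, the spread of genes with few counts in both groups is poorly known.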
